A study of Mus musculus with 93 samples.

Results

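The genes described here are the antioxidant, glutathione and ferritin genes of the mouse ovary: the peroxiredoxins (Prdx), glutathione peroxidases (Gpx), glutathione S-transferases (Gst), superoxide dismutases (Sod), thioredoxins and thioredoxin reductases (Txn, Txnrd), the ferritin chains Fth1 and Ftl1, the enzymes that make and recycle glutathione, and the regulators and classic targets around Nfe2l2. Members were taken by symbol, from these name stems and from a list of single genes, where the mean of at least 1 group reached 1 CPM (counts scaled to the library total). Member levels below are CPM after TMM scaling over all libraries of a cell type, and marker sums, Esr2 and pseudogenes are CPM of the library total. The rule found 50 genes of the 24047 gene symbols in the deposited tables, and 2 further symbols, Gsto2 and Prdx6b, matched by name but stayed under that level. The rule uses names and this level, and the gene set was proposed with earlier results of these data known.

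The study sequenced RNA of granulosa cells, the somatic cells that surround and support the egg, and of oocytes, from ovaries of wild type mice and of mice that carry a knock-out of Esr2, the gene of estrogen receptor beta. Of mice aged 4 weeks there were 7 wild type and 7 knock-out granulosa libraries, and 12 wild type and 7 knock-out oocyte libraries. The age of 7 weeks was represented by 5 and 5 granulosa and 5 and 12 oocyte libraries. The age of 6 months was represented by 12 and 6 granulosa and 11 and 4 oocyte libraries. The strain, the allele, the number of cells per library, any pooling, the stage of the cycle and any hormone treatment are not given in the sources used here, and no label says that libraries of a group come from separate animals, so the p-values measure the spread between these libraries only, which may be technical.

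Cells clear superoxide with superoxide dismutases, which turn it into hydrogen peroxide, and they clear the peroxide with catalase, with peroxiredoxins recharged by thioredoxin, and with glutathione peroxidases recharged by glutathione. Glutathione S-transferases join glutathione to reactive compounds and to steroids and lipids, and ferritin stores iron in a shell of heavy and light chains so that the iron does not feed radical chemistry. The transcription factor encoded by Nfe2l2 (NRF2) drives many of these genes through the antioxidant response element, and Keap1 holds the factor in check. In the ovary, steroid synthesis in granulosa and luteal cells is a steady source of reactive oxygen, and the oocyte depends on glutathione for meiosis and for decondensing the sperm head.

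Regulation of these genes is partly written in their sequences, and 3 such features are shown because they set members apart from each other. The ferritin messages carry the iron responsive element near the start of the message, a hairpin that lets iron regulatory proteins block translation, and its loop of 6 bases is in capitals below (GENCODE vM21 transcripts, GRCm38). The Fth1 element lies at chr19:9982735-9982762 on the plus strand and the Ftl1 element at chr7:45459777-45459804 on the minus strand, both in the 5′ untranslated exon. Over the 28 bases printed the elements differ at 4 positions.
Fth1: ctgcttcaaCAGTGCttgaacggaaccc
Ftl1: ttgcttcaaCAGTGTttgaacggaacag
RNA abundance, the quantity measured here, does not report on that translational control.

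Selenoproteins read an in-frame TGA codon as selenocysteine, the residue at the active site of several glutathione peroxidases and of all thioredoxin reductases. An in-frame TGA before the end of the coding sequence was found in 4 of 7 Gpx members, in 3 of 3 Txnrd members and in 0 of the other 40 members. The codon is shown in capitals with up to 12 bases on each side, for the 4 peroxidases and for the reductase that acts in the cytosol. It is codon 47 in Gpx1, 40 in Gpx2, 73 in Gpx3, 129 in Gpx4 and 612 in Txnrd1, counted from the start codon of the transcript used.
Gpx1: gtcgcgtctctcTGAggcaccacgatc
Gpx2: gtggcgtcactcTGAggaacaactacc
Gpx3: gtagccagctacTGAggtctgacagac
Gpx4: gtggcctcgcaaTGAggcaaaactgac
Txnrd1: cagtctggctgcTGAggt
Gpx6, Gpx7 and Gpx8 hold no such codon.

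The third feature is the core of the antioxidant response element, searched as TGACNNNGC on both strands of the RefSeq promoters (GRCm38.p6, 250 bases before to 50 bases after the annotated start). Of the 50 members, 43 had a promoter in the table, and 9 of these held the core (20.9%), against 14% of all 27025 genes with a promoter. The 9 were Gclm, Gsta3, Gstm5, Gstm7, Nfe2l2, Prdx1, Sod1, Srxn1 and Txnrd1. Core holders that changed with genotype or age, as described further on, were Gstm5, Gstm7, Prdx1 and Gsta3. Gsta3 was low in level and is not printed. The promoters of Gstm5 (chr3:107895604-107895903, plus strand), Gstm7 (chr3:107931565-107931864, minus strand) and Prdx1 (chr4:116685349-116685648, plus strand) are printed with the match in capitals.
Gstm5: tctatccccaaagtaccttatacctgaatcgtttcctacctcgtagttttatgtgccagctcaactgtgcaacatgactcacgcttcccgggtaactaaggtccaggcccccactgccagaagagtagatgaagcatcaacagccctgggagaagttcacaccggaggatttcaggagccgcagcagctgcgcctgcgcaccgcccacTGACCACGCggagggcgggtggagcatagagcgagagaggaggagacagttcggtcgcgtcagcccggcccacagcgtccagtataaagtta
Gstm7: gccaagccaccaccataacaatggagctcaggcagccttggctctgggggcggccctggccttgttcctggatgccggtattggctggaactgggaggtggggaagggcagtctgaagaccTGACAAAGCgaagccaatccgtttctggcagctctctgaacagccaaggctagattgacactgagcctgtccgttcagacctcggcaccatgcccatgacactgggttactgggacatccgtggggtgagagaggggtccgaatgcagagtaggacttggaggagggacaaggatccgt
Prdx1: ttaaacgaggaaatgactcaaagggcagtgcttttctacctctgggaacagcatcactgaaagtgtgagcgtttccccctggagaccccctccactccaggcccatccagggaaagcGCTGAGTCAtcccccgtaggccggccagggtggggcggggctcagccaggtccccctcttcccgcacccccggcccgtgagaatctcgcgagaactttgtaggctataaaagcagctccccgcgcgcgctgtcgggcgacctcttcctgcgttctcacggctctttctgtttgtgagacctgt
A match is a description of these letters, and no binding was measured. Among the 13 members with a promoter in the table that changed with genotype in granulosa cells at 6 months, 2 held the core (15.4%), and among the 28 tested members with a promoter that did not pass, 7 did (25%).

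Library totals ran from 702726 to 7751953 counts, with the lowest total in wild type granulosa cells at 7 weeks. Esr2 itself stood at 5.69 to 39.6 CPM in wild type granulosa cells and at 39.3 to 112 CPM in wild type oocytes, and at 0 to 0.598 CPM in all knock-out libraries, so every library matched its genotype label. Granulosa markers (11 genes such as Fshr, Inha and Foxl2) summed to 2186 to 3906 CPM in wild type granulosa libraries at 7 weeks, and oocyte markers to 12670 to 25650 CPM in wild type oocyte libraries of that age, with 1 of the 13 oocyte genes at 0 or not listed. The granulosa libraries also held RNA of luteal, immune, erythroid and surface epithelium markers, whose sums are given beside the results they move with. In bulk libraries fewer cells of a type and less RNA per cell cannot be told apart. No pair of libraries held identical values.

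Ferritin and peroxiredoxins led the antioxidant RNA of granulosa cells, and peroxiredoxin 1 led that of oocytes. Levels between genes are compared as CPM per kilobase of exon (CPM per kb), with all annotated exons of a gene joined. That length can exceed the message expressed, and the order of genes depends on it. It is 3469 bases for Fth1, 1340 for Ftl1, 3043 for Prdx1, 3050 for Prdx2 and 1051 for Txn1. In CPM alone Fth1 stood above Ftl1, and Prdx1 and Prdx2 above Txn1, in wild type granulosa cells at 6 months. In wild type granulosa cells at 6 months the order began with Ftl1 at 3602 CPM per kb and Fth1 at 1857 CPM per kb, the light and heavy ferritin chains. The cytosolic peroxiredoxins Prdx1 (628) and Prdx2 (569.9) and thioredoxin Txn1 (566) came next, close to each other, then the cytosolic peroxidase Gpx1 (409) and the secreted peroxidase Gpx3 (269.8). The most abundant transferases were Gstp1 (231), Gstm1 (221) and Gstm2 (168 CPM per kb). In wild type oocytes at 6 months Prdx1 led with 769 CPM per kb, followed by the mu class transferase Gstm5 (265), Prdx2 (205), Gpx3 (97.7) and Gpx6 (81.1), and Ftl1 stood at 59.5 CPM per kb.

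**Figure D1:**
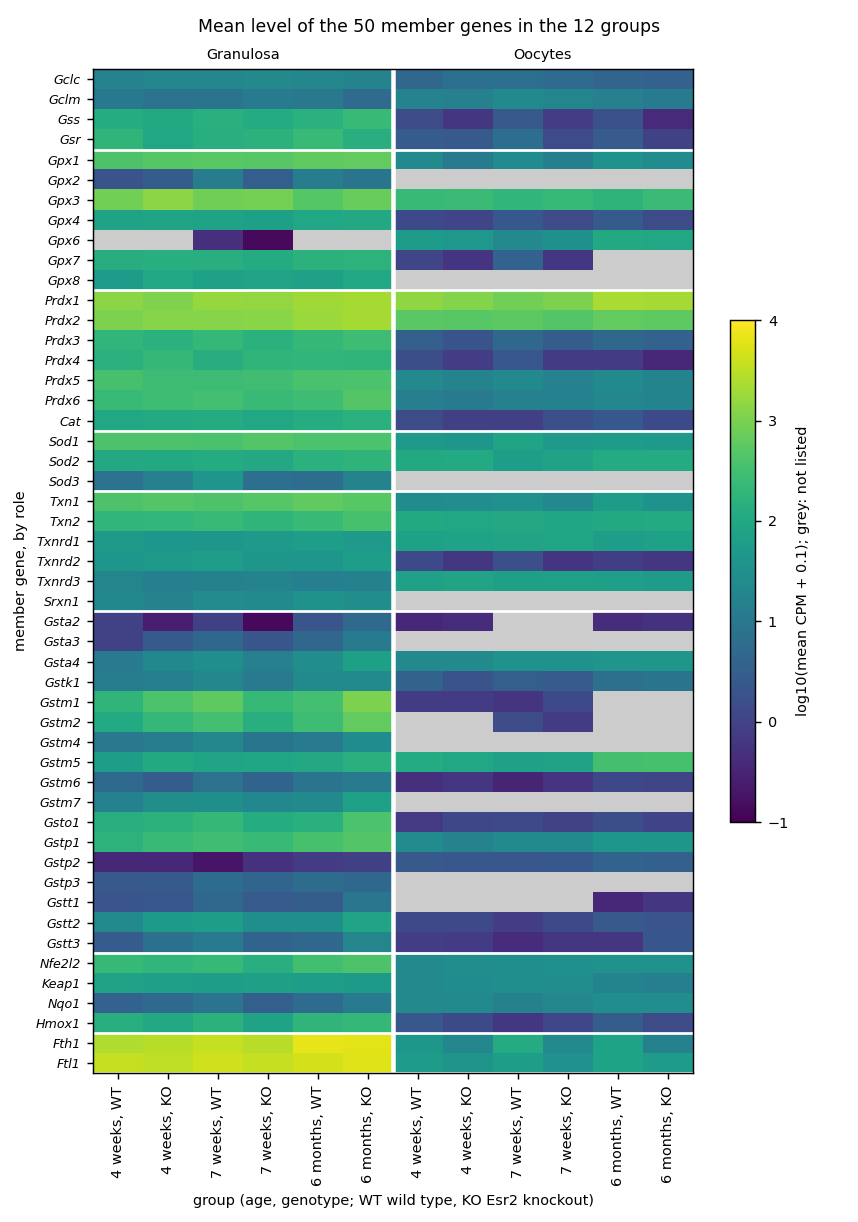
Mean level of each of the 50 genes (rows, ordered by role) in each of the 12 groups (columns), with color giving log10 of the mean CPM plus 0.1 (grey where a table does not list the gene). The ferritin rows are brighter in the 6 granulosa than in the 6 oocyte columns, Gpx6 is bright in the oocyte columns, and Prdx1 and Prdx2 differ less between cell types.

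Between the cell types, wild type granulosa cells were compared with wild type oocytes of the same age. At 6 months 35 of 36 tested members differed, 27 higher and 8 lower in granulosa cells, where 83.6% of all tested genes differed (45% higher and 38.6% lower). At 4 weeks 34 of 36 differed (25 higher, 9 lower) against 81.1% of all genes (43.6% and 37.5%), and at 7 weeks 31 of 36 (26 higher, 5 lower) against 74.4% (40.2% and 34.2%). The median log2 difference of the members at 6 months was 2.58, against 0.25 for all tested genes. Each table holds 1 cell type at 1 age, and a granulosa library and an oocyte library differ in the RNA each cell holds, so table, RNA content and cell type cannot be told apart in these values.

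Iron storage genes were much higher in granulosa cells. Fth1 ran at 3751, 6391 and 8670 CPM (lowest, median, highest) in the 12 wild type granulosa libraries at 6 months and at 10.5, 39.0 and 399 CPM in the 11 oocyte libraries, a log2 difference of 5.91 ± 0.50 (estimate ± standard error, SE, as for all such values below; adjusted p = 2.72e-19). In these CPM, scaled within each cell type, the groups did not overlap. The log2 differences come from a joint fit scaled over both cell types, so CPM and log2 values do not share a scale. Ftl1 had a log2 difference of 5.45 (adjusted p = 7.79e-23). Hmox1, the heme oxygenase that frees iron from heme, had one of 5.46 (adjusted p = 1.91e-18).

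Most enzymes of the peroxide pathways were also higher in granulosa cells at 6 months. Glutathione reductase Gsr, which regenerates reduced glutathione, differed by 5.96, glutathione synthetase Gss by 6.04, catalase Cat by 5.22, and the ligase subunit Gclc by 1.81 on the log2 scale. Among peroxiredoxins the endoplasmic reticulum form Prdx4 differed by 7.56, the mitochondrial form Prdx3 by 5.03, Prdx6 by 3.25 and Prdx2 by 0.99. Gpx1 differed by 3.51, Gpx3 by 0.98, Txn1 by 2.93, cytosolic Sod1 by 2.28, Nfe2l2 by 2.56 and Keap1 by 1.34, all with adjusted p of 6.25e-05 or less. Gpx4, which reduces lipid hydroperoxides, differed by 4.81, but its count is uncertain: a processed copy, Gpx4-ps2, was counted at 361 to 552 CPM where Gpx4 had 42.6 to 144 CPM, and the pair shares sequence, so reads of one could be counted under the other.

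A smaller set was lower in granulosa cells than in oocytes at 6 months. The quinone reductase Nqo1 was lower in granulosa cells by a log2 difference of -2.79 (adjusted p = 2.10e-14), with 2.75 to 11.6 CPM there and 15.9 to 41.7 CPM in oocytes. Gstm5 differed by -2.19 (adjusted p = 2.55e-18), the testis-rich thioredoxin reductase Txnrd3 by -2.65 (adjusted p = 5.35e-20), and Gstp2 by -2.75. Smaller differences in that direction were -0.77 for Prdx1, -1.05 for the ligase modifier subunit Gclm, -0.89 for Gsta4 and -0.55 for Txnrd1. At 7 weeks 3 of these genes did not pass: Gstm5 had -0.25 (adjusted p = 0.435), Gsta4 -0.66 (adjusted p = 0.206), and Prdx1, with the opposite sign, 0.45 (adjusted p = 0.076). At 6 months mitochondrial Sod2 was the 1 tested member that did not pass, with a log2 difference of -0.04 (adjusted p = 0.835).

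The joint fit of cell types kept only genes listed in every deposited table, and 14 members were not. The counts and the median difference of cell types given above leave these 14 out. Gpx6, known from olfactory epithelium, was listed in granulosa cells only at 7 weeks, at group means of 0.402 CPM or less, while oocyte libraries at 6 months held 60.5 to 217 CPM. The other 13, Gpx2, Gpx7, Gpx8, Gsta2, Gsta3, Gstm1, Gstm2, Gstm4, Gstm7, Gstp3, Gstt1, Sod3 and Srxn1, had group means of 3.67 CPM or less in the oocyte tables that list them. Gstm1 in granulosa cells reached 158 to 758 CPM at 6 months, and Gpx7, a peroxidase of the endoplasmic reticulum, reached 115 to 208 CPM.

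With Esr2 deleted, granulosa cells at 6 months held more RNA of glutathione S-transferases and of several peroxide-clearing enzymes. Of the 48 members tested, 15 rose and 1 fell, a share of 33.3%, against 12.6% of all tested genes (6.59% higher and 6.05% lower). The median log2 fold change (knock-out over wild type) was 0.36 for the members and -0.02 for all genes. A further 9 members had an unadjusted p under 0.05 and did not pass. Here and below, the share of all genes at an unadjusted p under 0.05 was not computed, so such counts have no background. DESeq2 called 20 members and limma voom 11. Member counts from other tools or from fits without 1 library, here and below, have no background unless calls over all genes stand beside them. Gpx6 was not listed at this age, and Gstp2 was too low to test.

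The mu class transferases, which conjugate glutathione to electrophiles, held 5 of the 15 rises. Gstm1 ran at 158, 308 and 758 CPM in 12 wild type libraries and at 314, 1105 and 1748 CPM in 6 knock-out libraries (log2 fold change 1.67 ± 0.33, adjusted p = 0.00365). Knock-out libraries 3, 4, 5 and 6 stood above all wild type libraries, while knock-out libraries 1 and 2 (314 and 412 CPM) lay within the wild type range. Gstm7 ran at 6.78, 22.2 and 38.8 CPM in wild type and at 46.0, 69.5 and 104 CPM in knock-out libraries (log2 fold change 1.65 ± 0.24, adjusted p = 1.41e-04). All 6 knock-out libraries were above all 12 wild type libraries.

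Gstm4 was also separated by genotype, at a lower level. It had 5.42, 11.6 and 18.3 CPM in wild type and 19.3, 23.6 and 40.1 CPM in knock-out libraries (log2 fold change 1.23 ± 0.24, adjusted p = 0.00262), again with no overlap. Gstm2 had 152, 249 and 745 CPM and 224, 633 and 1216 CPM (log2 fold change 1.18 ± 0.34, adjusted p = 0.0325). Its knock-out libraries 1 and 2 lay within the wild type range, and wild type library 11 (745 CPM) lay within the range of the others. Gstm5 had 79.3, 102 and 141 CPM and 112, 153 and 195 CPM (log2 fold change 0.55 ± 0.14, adjusted p = 0.0164). Gstm6, the last mu class member, did not pass, at 0.53 (adjusted p = 0.291). The mu genes lie side by side in the genome and share sequence, as do the theta, alpha and pi genes, so counts of single paralogs are uncertain.

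**Figure D2:**
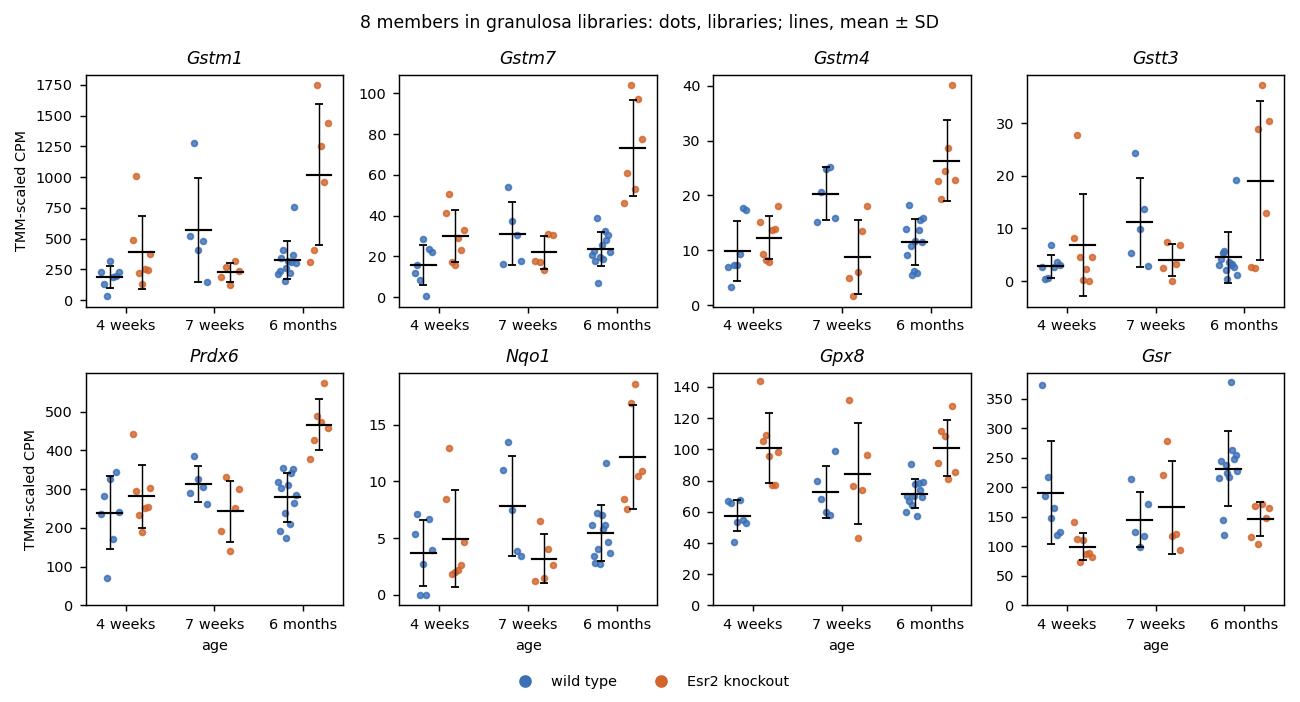
CPM of 8 members in every granulosa library, wild type and knock-out at 4 weeks, 7 weeks and 6 months (points are libraries, bars are means with SD). At 6 months all 6 knock-out points of Gstm7, Gstm4 and Prdx6 lie above all wild type points, and for Gstm1 knock-out libraries split into 4 high and 2 within the wild type range.

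Theta and omega class transferases rose with a wide spread between knock-out libraries. Gstt2 had 9.27, 25.9 and 79.3 CPM in wild type and 18, 89.4 and 165 CPM in knock-out libraries (log2 fold change 1.40 ± 0.43, adjusted p = 0.0413). Gstt3 had 0.458, 3.18 and 19.1 CPM and 2.53, 20.8 and 37.2 CPM (log2 fold change 2.04 ± 0.58, adjusted p = 0.0273). For Gstt2 knock-out libraries 3 to 6 lay above all wild type libraries, and for Gstt3 wild type library 11 (19.1 CPM) lay among them. Knock-out libraries 1 and 2 were within the wild type range for both. Gstt1 changed by 1.66 (adjusted p = 0.0285) at 2.93 and 9.02 CPM on average, and the omega class gene Gsto1 by 1.37 (adjusted p = 0.0187) at 152 and 385 CPM. Leaving out knock-out library 3 ended the call of each of these 4 genes, and left 7 members called in place of 16. Leaving out knock-out library 5 left 10. Calls over all genes in these fits are not given here. The Gstt2 and Prdx3 calls were each kept in only 6 of 18 fits that left out 1 library.

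The other transferases did not pass at 6 months. Gstp1, the pi class enzyme and the most abundant transferase per kb, had a log2 fold change of 0.41 (adjusted p = 0.0557). The alpha class genes had 1.22 (adjusted p = 0.0796) for Gsta4, 1.34 (adjusted p = 0.0721) for Gsta2 and 1.29 (adjusted p = 0.166) for Gsta3, the last pair at group means of 10.7 CPM or less. Gstk1 had 0.06 and Gstp3 -0.31.

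Among enzymes that remove peroxide, Prdx6 was separated by genotype. This peroxiredoxin, which also repairs oxidized phospholipids, had 174, 294 and 355 CPM in wild type and 377, 465 and 574 CPM in knock-out libraries (log2 fold change 0.77 ± 0.15, adjusted p = 0.00226). All knock-out libraries were above all wild type libraries. The mitochondrial pair of Prdx3 and thioredoxin Txn2 rose by less: Prdx3 had 146, 218 and 264 CPM and 241, 268 and 399 CPM (log2 fold change 0.45 ± 0.15, adjusted p = 0.0428). Txn2 had 125, 239.9 and 329 CPM and 289, 351 and 396 CPM (log2 fold change 0.54 ± 0.16, adjusted p = 0.0275). Both overlapped between groups. The Prdx3 call was lost in 9 of 11 alternatives, the most of the 16, with values down to 0.20.

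Gpx8, which uses peroxide made during protein folding in the endoplasmic reticulum, had 57.2 to 90.9 CPM in wild type and 81.0 to 128 CPM in knock-out libraries (log2 fold change 0.51 ± 0.13, adjusted p = 0.0156). Wild type library 4 (90.9 CPM) reached into the knock-out range and the other 11 did not. The other peroxidases did not pass, with log2 fold changes of 0.53 (adjusted p = 0.0844) for Gpx3, 0.13 (adjusted p = 0.608) for Gpx1, 0.10 (adjusted p = 0.745) for Gpx4, -0.66 for Gpx2 and 0.12 for Gpx7. Abundant Prdx1 (0.19, adjusted p = 0.257), Prdx2 (0.31, adjusted p = 0.111) and Txn1 (-0.26, adjusted p = 0.294) did not pass either, nor did Prdx4 (-0.06) and Prdx5 (0.07). Of the thioredoxin reductases, Txnrd1 had -0.26 (adjusted p = 0.296), Txnrd2 0.53 (adjusted p = 0.0669) and Txnrd3 0.16. Sulfiredoxin Srxn1, which revives overoxidized peroxiredoxins, had -0.24 (adjusted p = 0.492).

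In glutathione metabolism 1 gene rose, Gss, and 1 fell, the reductase Gsr. Gss, which adds glycine in the last step of synthesis, had 78.2, 152 and 227 CPM in wild type and 174, 248 and 338 CPM in knock-out libraries (log2 fold change 0.68 ± 0.20, adjusted p = 0.0282). Gsr had 119, 232 and 378 CPM in wild type and 105, 156 and 172 CPM in knock-out libraries (log2 fold change -0.65 ± 0.19, adjusted p = 0.0246), the 1 member that fell. Knock-out libraries of Gsr lay at or below 172 CPM, and 2 of 12 wild type libraries (3 and 4) lay within their range. The subunits of the rate-limiting ligase did not pass, at -0.25 (adjusted p = 0.558) for Gclc and -0.86 (adjusted p = 0.0598) for Gclm.

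Of the NRF2 targets outside these families, Nqo1 rose from 2.75, 5.25 and 11.6 CPM to 7.60, 10.7 and 18.6 CPM (log2 fold change 1.18 ± 0.30, adjusted p = 0.0142), with 1 wild type library (10, at 11.6 CPM) inside the knock-out range. Nfe2l2 itself had 192, 267 and 534 CPM and 303, 400.4 and 444 CPM and did not pass (log2 fold change 0.41 ± 0.19, adjusted p = 0.129), and its inhibitor Keap1 had -0.20 (adjusted p = 0.418). Hmox1 had 0.22 (adjusted p = 0.506). Catalase had 0.30 (adjusted p = 0.185), and the dismutases had -0.01 (adjusted p = 0.98) for Sod1, 0.18 (adjusted p = 0.529) for Sod2 and 1.35 (adjusted p = 0.0961) for the extracellular Sod3.

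Ferritin, the most abundant of these genes per kb, did not pass the test at 6 months. Fth1 had 3751, 6391 and 8670 CPM in wild type and 4927, 5854 and 7963 CPM in knock-out libraries (log2 fold change -0.02 ± 0.16, adjusted p = 0.931). Ftl1 had 3617, 4876 and 5619 CPM and 4720, 5660 and 6298 CPM (log2 fold change 0.23 ± 0.13, adjusted p = 0.202). For Fth1 the groups overlapped widely. For Ftl1 they overlapped as well, but the knock-out median lay above the highest wild type library.

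**Figure D3:**
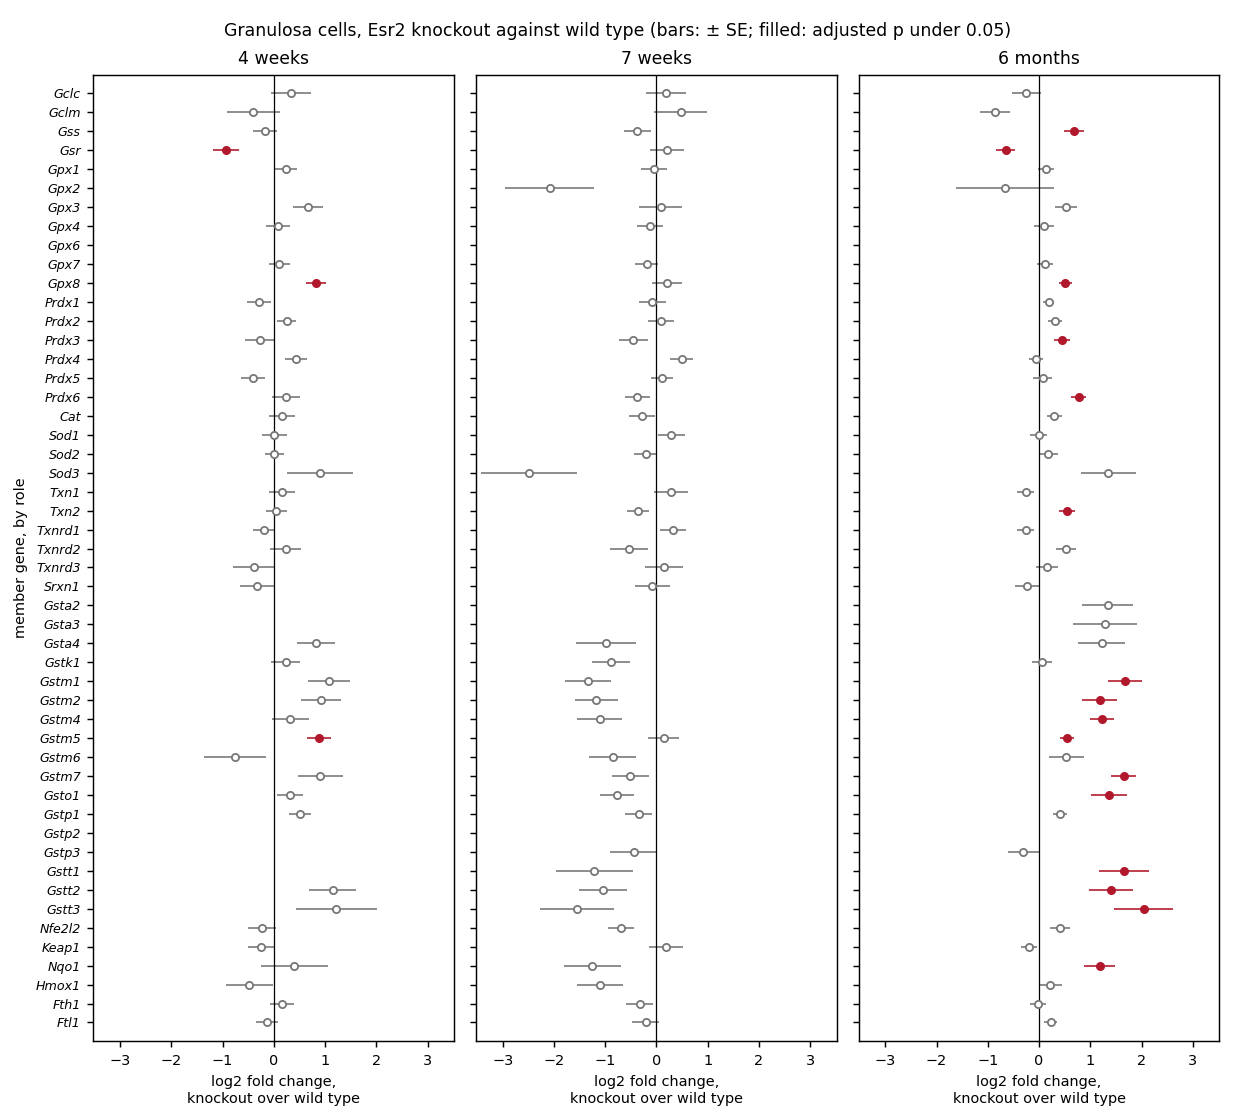
Log2 fold change (knock-out over wild type, with SE) of each tested member in granulosa cells at 4 weeks, 7 weeks and 6 months, grouped by role, with filled points for members past the test. At 6 months 15 filled points lie above 0 and Gsr below, at 4 weeks Gpx8 and Gstm5 lie above and Gsr below, and at 7 weeks none is filled.

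Markers of other cells moved with genotype in the same 6 month libraries. Erythroid markers (6 genes, 1 at 0 or not listed) summed to 30.1 to 876 CPM in wild type and 2.58 to 163 CPM in knock-out libraries (-3.47 on the log2 scale, adjusted p = 0.0168 over 48 exact two-sided permutation tests), and oocyte markers (13 genes, 5 at 0 or not listed) to 7.45 to 35.1 CPM and 18.9 to 45.1 CPM (adjusted p = 0.0476 by the same exact test). Surface epithelium markers (8 genes) summed to 397 to 1267 CPM and 357 to 1186 CPM (adjusted p = 0.821, exact permutation test), although 2 of the 6 tested genes of that list, Upk1b (1.58, adjusted p = 0.0267) and Msln (2.46, adjusted p = 0.0405), rose. Immune markers summed to 241 to 4825 CPM and 221 to 1072 CPM (adjusted p = 0.322, exact permutation test). Theca and stroma markers summed to 26.6 to 75.3 CPM and 16.1 to 306 CPM (adjusted p = 0.511), luteal markers to 3552 to 8507 CPM and 4306 to 10590 CPM (adjusted p = 0.555), and granulosa markers themselves to 2020 to 4144 CPM and 1911 to 5542 CPM (adjusted p = 0.442, exact permutation tests). Single genes of these lists passed in both directions by edgeR. Of 11 granulosa markers Fshr (1.5), Amhr2 (0.87) and Inhba (0.87) rose and Fst (-1.41) fell. Of 7 luteal markers Star rose (0.92) and Ptgfr (-2.29) and Akr1c18 (-1.38) fell. The stromal gene Dcn (3.08) and the oocyte gene Gdf9 (1.06) rose, and the immune gene Cd52 (-1.28) and the erythroid gene Alas2 (-1.63) fell.

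With the marker share of each library as a covariate, the 16 members called became 16 for surface epithelium, 10 for immune and 9 for erythroid markers. Of these 3 sums, the erythroid one itself differed by genotype. Over all genes the 1580 calls became 1500, 1222 and 297 in the same fits. Gstm7 had 1.62 (adjusted p = 3.07e-05), 1.59 (adjusted p = 8.41e-04) and 1.66 (adjusted p = 0.00507) in these fits, and Gstm1 also passed in all 3. Prdx6 had 0.75 (adjusted p = 0.00233), 0.73 (adjusted p = 0.0087) and 0.61 (adjusted p = 0.101), and Gss had 0.16 (adjusted p = 0.865) with the erythroid share. The part of the other cell types in these results was not tested.

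At 4 weeks the knock-out granulosa cells differed in 3 of 43 tested members, 2 higher and 1 lower, or 6.98% against 2.33% of all tested genes (0.979% higher and 1.35% lower). Another 7 members had an unadjusted p under 0.05. Gpx8 had 40.5, 54.9 and 67.7 CPM in 7 wild type and 77.3, 98.5 and 144 CPM in 7 knock-out libraries (log2 fold change 0.82 ± 0.20, adjusted p = 0.0255), and all knock-out libraries were above all wild type libraries. Gstm5 had 37.4, 59.8 and 79.5 CPM and 77.7, 95.5 and 180.4 CPM (log2 fold change 0.88 ± 0.23, adjusted p = 0.0467). Gsr had 119.6, 165 and 372 CPM and 74.0, 89.0 and 140.3 CPM (log2 fold change -0.93 ± 0.25, adjusted p = 0.0492). For Gstm5 and Gsr the groups overlapped.

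These 3 genes are among the 16 called at 6 months and had the same sign there, in separate libraries. The share of all 4 week calls that passed again at 6 months was not computed. At 7 weeks none of the 3 passed. Their log2 fold changes were then 0.21 for Gpx8, 0.14 for Gstm5 and, with the opposite sign, 0.20 for Gsr. At 4 weeks the Gsr and Gstm5 calls were each lost in 10 of 14 fits that left out 1 library, and the Gpx8 call in 5 of 14. Without knock-out library 2 or 3, 0 members passed, and without knock-out library 1, 4 or 5 or wild type library 3, 4, 5 or 7, 1 did. Erythroid markers ran at 26.1 to 889.7 CPM in wild type and 9.23 to 40.9 CPM in knock-out libraries (adjusted p = 0.0168, exact permutation test), luteal markers at 2877 to 11580 CPM and 1664 to 3441 CPM (adjusted p = 0.0168), and immune markers at 396 to 2069 CPM and 259 to 609 CPM (adjusted p = 0.0476). With the erythroid or the immune share as covariate 0 members passed by edgeR, and the 283 calls over all genes became 22 and 88. The fold changes moved less than the calls: Gpx8 had 0.95 and 0.84 in these fits, Gstm5 1.08 and 0.77, and Gsr -0.69 and -0.75.

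The remaining tested members at 4 weeks did not pass. Gstm1 had 32.5, 195 and 318 CPM in wild type and 131, 256 and 1011 CPM in knock-out libraries (log2 fold change 1.07 ± 0.41, adjusted p = 0.266). Nqo1 had 0.40 (adjusted p = 0.941), Nfe2l2 -0.23, Keap1 -0.25 and Hmox1 -0.48. For glutathione synthesis Gclc had 0.34, Gclm -0.40 and Gss -0.17. Fth1 had 0.16, Ftl1 -0.13, Cat 0.16, Sod1 0.01, Sod2 0.01, Gpx1 0.24, Gpx3 0.67 and Gpx4 0.08. Prdx1 had -0.29, Prdx2 0.25, Prdx6 0.24, Txn1 0.16, Txnrd1 -0.20 and Srxn1 -0.33 on the log2 scale, with the smallest adjusted p of these named genes at 0.266. The members not tested were Gpx2, Gpx6, Gsta2, Gsta3, Gstp2, Gstp3 and Gstt1.

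At 7 weeks 0 of 46 tested members passed edgeR's test, where 0.8% of all genes did. DESeq2 and limma voom also called 0, and 13 members had an unadjusted p under 0.05. The median log2 fold change was -0.34 for the members and 0.01 for all genes, and 14 of 46 members were above 0. Gstm1 read 525, 1275, 412, 478 and 145 CPM in the 5 wild type libraries and 188, 268, 121, 320.0 and 235 CPM in the 5 knock-out libraries (log2 fold change -1.34 ± 0.45, adjusted p = 0.162). Wild type library 2 was the highest, and wild type library 5 lay below 4 of the 5 knock-out libraries. Nfe2l2 read 252, 265, 199, 227 and 170.4 CPM and 113, 162, 80.9, 204 and 130.2 CPM (log2 fold change -0.69 ± 0.26, adjusted p = 0.189), with 1 knock-out library inside the wild type range.

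Surface epithelium markers at 7 weeks ran at 567 to 1848 CPM in wild type and 140.0 to 445 CPM in knock-out libraries (-1.68 on the log2 scale, adjusted p = 0.0476 over 48 exact two-sided permutation tests), with no overlap, and Krt18 (-1.98, adjusted p = 0.0141) and Krt8 (-1.71, adjusted p = 0.0152) fell. Luteal markers ran at 5052 to 12850 CPM and 2552 to 6155 CPM (-1.21 on the log2 scale, p = 0.0159, adjusted p = 0.0762, exact permutation test), and of them the luteinizing hormone receptor gene Lhcgr fell (-3.51, adjusted p = 0.00746). Other named members had log2 fold changes of -1.25 for Nqo1, -1.11 for Hmox1, 0.18 for Keap1, -0.28 for Cat, 0.20 for Gsr, -0.37 for Gss, 0.19 for Gclc and 0.47 for Gclm. Fth1 had -0.33, Ftl1 -0.21, Sod1 0.29, Sod2 -0.21, Gpx1 -0.05, Gpx3 0.08, Gpx4 -0.13, Prdx1 -0.08, Prdx2 0.09, Prdx6 -0.37, Txn1 0.28, Txnrd1 0.32 and Srxn1 -0.08. Gpx6, Gsta2, Gsta3 and Gstp2 were too low to test.

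Whether the knock-out difference itself changed with age was tested as a difference of differences in 1 fit over all granulosa libraries. Between 7 and 4 weeks 0 of 48 members passed (0.00699% of all genes did, 16 members had an unadjusted p under 0.05, DESeq2 called 0). Between 6 months and 4 weeks 0 of 48 passed (0.657% of all genes, 6 members with an unadjusted p under 0.05, DESeq2 called 0). Between 6 months and 7 weeks, a contrast chosen after the data were seen, 13 members passed, all with a higher knock-out difference at 6 months, against 10.4% of all genes in either direction and 4.66% in that direction. The 7 week libraries enter the first and the last contrast alike.

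The 12 of these with the smallest p were Gstm4 (difference 2.30 ± 0.50, adjusted p = 0.0113), Gstm1 (2.97 ± 0.64), Gsto1 (2.10 ± 0.49), Gstm7 (2.13 ± 0.55), Gstm2 (2.32 ± 0.62), Sod3 (3.80 ± 1.10), Prdx6 (1.11 ± 0.33), Txn2 (0.88 ± 0.27), Gstt2 (2.41 ± 0.74), Gsta2 (4.52 ± 1.45), Gstt3 (3.55 ± 1.14) and Nqo1 (2.39 ± 0.78, adjusted p = 0.042). Gsta4 was the other (2.16). Nfe2l2 had 1.07 (adjusted p = 0.0522). Leaving out wild type library 2 at 7 weeks, which was high for Gstm1 and had the highest surface epithelium sum (1848 CPM), left 3 members past the test, and leaving out knock-out library 3 at 7 weeks left 4. Leaving out wild type library 4 or knock-out library 1 of that age left 7 each. Calls over all genes in these fits are not given here.

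Several of these transferases followed the surface epithelium markers from library to library. After group means were removed, the correlation with the summed markers over the 42 granulosa libraries was 0.82 for Gstt2, 0.77 for Gstm2, 0.77 for Sod3, 0.73 for Gsta4, 0.67 for Gstm1 and 0.37 for Gstm7. It was above 0.5 for 9 of 49 members, with a median of 0.13, which is a description of libraries that share their depth with both measures. The correlation was not computed over all genes, so this count has no background. Knock-out libraries 1 and 2 at 6 months, the low ones for Gstm1, Gstt2 and Gstt3, had marker sums of 377 and 357 CPM, against 733 to 1186 CPM in the other 4. With the surface epithelium share as a covariate 0 of 48 members passed the 6 months against 7 weeks contrast, as did 0 of all genes, so the loss of calls was not particular to the members. The differences were then 1.90 for Gstm4, 0.76 for Txn2, 3.19 for Gsta2 and 0.74 for Prdx6, beside 2.30, 0.88, 4.52 and 1.11 without it. They were 1.22 for Nqo1, 1.09 for Gstm7, 0.96 for Gstm1, 0.80 for Gsto1, 0.23 for Gstt3, 0.16 for Gstm2 and 0.13 for Sod3, and below 0 for Gstt2 (-0.17) and Gsta4 (-0.34).

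Markers of other cells passed in the same contrast. By edgeR 5 of 7 tested oocyte markers had a higher knock-out difference at 6 months: Gdf9 (3.81), Bmp15 (3.78), Mos (3.77), Dppa3 (3.60) and Oosp1 (3.48). So did 3 of 7 surface epithelium markers, Krt7, Krt8 and Krt18, the stromal genes Dcn (4.23) and Acta2 (4.58), and the luteal genes Lhcgr (2.87) and Cyp11a1 (1.80). Of 11 granulosa markers Fshr was higher (2.01), and Fst (-2.30) and Nr5a2 (-1.84) were lower. Their part in the members' differences was not tested.

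**Figure D4:**
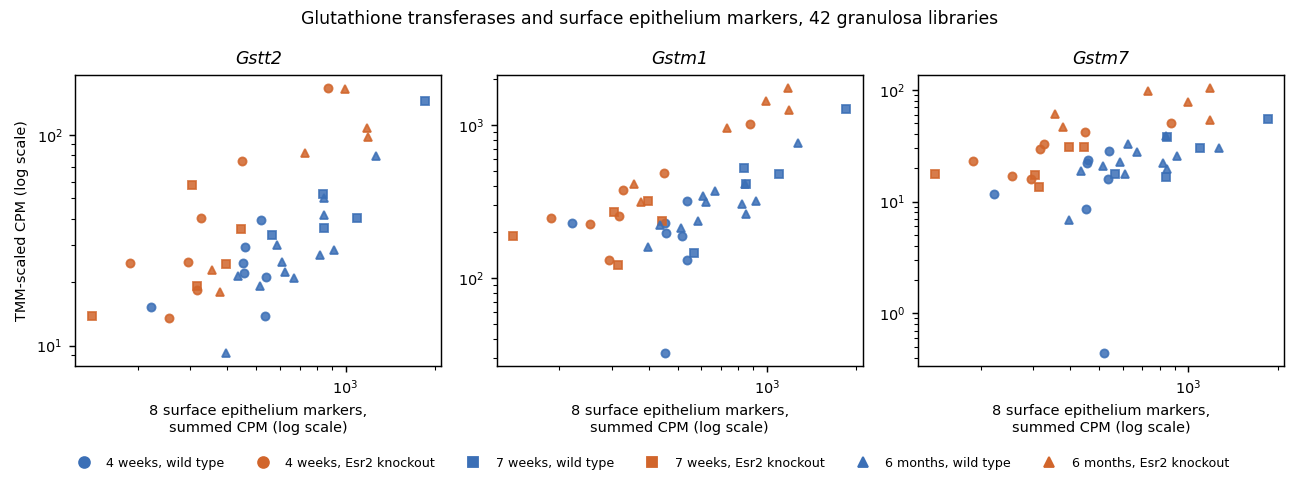
CPM of Gstt2, Gstm1 and Gstm7 (vertical, log scale) against the summed CPM of 8 surface epithelium markers (horizontal, log scale) in each of 42 granulosa libraries, with color for genotype and marker shape for age. Gstt2 climbs along the marker axis in both genotypes, and for Gstm7 the 6 month knock-out points lie above the 6 month wild type points at every marker level.

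In wild type granulosa cells, age was compared in the same fit. Each age is its own table, so age and table cannot be told apart. From 4 weeks to 6 months 11 of 48 members rose and 0 fell by edgeR (15 passed by DESeq2, and a further 9 had an unadjusted p under 0.05), against 8% of all genes in either direction and 3.17% higher, with a median log2 fold change of 0.40 for the members and -0.03 for all genes. The heavy ferritin chain led by p: Fth1 had 1663, 2495 and 3819 CPM at 4 weeks and 3751, 6391 and 8670 CPM at 6 months (log2 fold change 1.32 ± 0.19, adjusted p = 9.97e-06). The ranges overlapped at 1 end, since the lowest 6 month library lay below the highest at 4 weeks. Ftl1 had 0.40 (adjusted p = 0.0999) and did not pass.

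Transferases made up 6 of the 11. Gstp1 had 87.1, 176 and 233 CPM at 4 weeks and 246, 361 and 519.5 CPM at 6 months (log2 fold change 1.08 ± 0.17, adjusted p = 7.89e-05), with no overlap. Gstk1, the kappa class enzyme of mitochondria and peroxisomes, rose by 0.93 (adjusted p = 0.0056), Gstm5 by 0.77 (adjusted p = 0.00737), Gstm2 by 1.30 (adjusted p = 0.0278) with no overlap, Gstp3 by 1.19 (adjusted p = 0.0412) and Gsta3 by 2.38 (adjusted p = 0.0405), the last pair at means of 5.71 CPM or less. Prdx2 had 889, 989 and 1161 CPM and 1366, 1695 and 2378 CPM (log2 fold change 0.75 ± 0.14, adjusted p = 8.73e-04), with no overlap. Prdx1 rose by 0.52 (adjusted p = 0.0478), Sod2 by 0.57 (adjusted p = 0.0323) and Gpx2, a peroxidase known from epithelia, by 2.83 (adjusted p = 0.0394) from a mean of 1.88 to 12.7 CPM. With the surface epithelium share as covariate 6 members passed, with 929 of all genes in place of 1144, and Gpx2 then had 0.78 (adjusted p = 0.547).

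Markers of other cells also differed between these ages. Oocyte markers summed to 9.46 to 836 CPM in wild type granulosa cells at 4 weeks and 7.45 to 35.1 CPM at 6 months, and 5 of 7 tested fell, among them Padi6 (-4.17), Gdf9 (-2.82) and Bmp15 (-2.72). Immune markers summed to 396 to 2069 CPM and 241 to 4825 CPM, where 1 of 12 passed, Cd74 (2.92). Surface epithelium markers summed to 221 to 539.5 CPM and 397 to 1267 CPM, with a rise of Krt8 (0.81). The luteal gene Star rose (1.16), Oxtr fell (-1.27), and the granulosa gene Fshr fell (-1.20). Their part in the rise of the members was not tested.

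The other named members did not pass between 4 weeks and 6 months. They had log2 fold changes of 0.40 for Nfe2l2, -0.30 for Keap1, 0.53 for Nqo1, 0.34 for Hmox1, 0.31 for Cat, 0.34 for Gclc, -0.08 for Gclm, 0.28 for Gsr, 0.32 for Gss and 0.77 (adjusted p = 0.0542) for Srxn1. Gpx1 had 0.53 (adjusted p = 0.05), just over the threshold before rounding, Gpx3 -0.79 (adjusted p = 0.0593), Gpx4 0.37, Prdx6 0.22, Sod1 -0.03, Txn1 0.56 (adjusted p = 0.0888), Txnrd1 0.36 and Gstm1 0.78.

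From 7 weeks to 6 months 2 of 48 members passed, 1 in each direction, against 1.36% of all genes (0.245% higher and 1.11% lower). Fth1 read 4462, 4815, 2922, 2326 and 3352 CPM at 7 weeks and 3751, 6391 and 8670 CPM at 6 months (log2 fold change 0.85 ± 0.21, adjusted p = 0.0213), with overlap. Sod3 read 15.1, 132, 19.4, 33.0 and 1.80 CPM at 7 weeks and 1.22, 3.74 and 30.2 CPM at 6 months (log2 fold change -2.61 ± 0.66, adjusted p = 0.0313). Wild type library 2 at 7 weeks was the highest for Sod3, and the value was -1.37 (adjusted p = 0.432) without it. The Fth1 value was 0.79 (adjusted p = 0.105) without wild type library 3, 0.73 (adjusted p = 0.16) without library 4 and 0.85 (adjusted p = 0.0512) without library 5 of 7 weeks. From 4 to 7 weeks 0 of 48 passed edgeR's test or DESeq2's, as for 0% of all genes, and 14 members had an unadjusted p under 0.05. Fth1 then had 0.47 (adjusted p = 0.488), and Gstm1 1.58 (adjusted p = 0.403).

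In oocytes the deletion of Esr2 left few differences among these genes. At 4 weeks 0 of 26 tested members passed (0.00924% of all genes did), and at 6 months 0 of 34 (0.00818%), by edgeR, DESeq2 and limma voom alike, with 2 and 4 members at an unadjusted p under 0.05. At 7 weeks 1 of 28 passed, against 0.154% of all genes (0.137% lower). Log2 fold changes of the tested members ran from -1.13 for Gpx1 to 0.60 for Gclc at 4 weeks, and from -2.52 for Gss to 0.53 for Gpx3 at 6 months.

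The 1 was Fth1, lower in knock-out oocytes at 7 weeks. It read 29.8, 228, 32.0, 189.5 and 104 CPM in the 5 wild type libraries and 9.92, 18.1 and 74.7 CPM in the 12 knock-out libraries (log2 fold change -2.22 ± 0.43, adjusted p = 0.0302). Wild type libraries 2, 4 and 5 stood above all knock-out libraries, and wild type libraries 1 and 3 lay among them. The value was -1.84 (adjusted p = 0.271) without wild type library 2, -2.0 (adjusted p = 0.131) without library 4 and -2.26 (adjusted p = 0.0514) without library 5. The name of 1 of the 12 knock-out columns joins the numbers 4 and 5, and library 5 also has a column of its own, so these may not be separate samples. Without the joined column Fth1 had -2.22 (adjusted p = 0.0456).

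Granulosa markers in these oocyte libraries (11 genes, 5 at 0 or not listed) summed to 418 CPM in wild type library 2, to 82.0 to 103 CPM in the other 4 wild type libraries, and to 46.3 to 190.5 CPM in knock-out libraries (adjusted p = 0.502, exact permutation test). Within groups, over 51 oocyte libraries, Fth1 had a correlation of 0.47 with them and of 0.46 with surface epithelium markers, given as a description. The latter summed to 8.22 to 134 CPM in wild type and 7.03 to 21.5 CPM in knock-out libraries at 7 weeks (-1.08 on the log2 scale, adjusted p = 0.116 over 48 exact two-sided permutation tests), and Krt18 fell (-4.42, adjusted p = 0.034). Luteal markers ran at 175 to 308 CPM in wild type and 109 to 256 CPM in knock-out libraries, and endothelial markers at 52.9 to 82.2 CPM and 72.5 to 162 CPM (adjusted p = 0.0168 each, exact permutation tests), and the luteal gene Cyp11a1 fell (-4.14, adjusted p = 0.0039). With the granulosa share as covariate Fth1 had -1.88 (adjusted p = 0.0417), and the part of surface epithelium, luteal and endothelial RNA in the result was not tested.

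Glutathione reductase lay just outside the threshold. Gsr read 14.3, 6.97, 3.74, 2.56 and 4.13 CPM in wild type and 0.472, 1.42 and 2.56 CPM in knock-out libraries (log2 fold change -2.16 ± 0.46, adjusted p = 0.0567). Gpx1 had -0.84 (adjusted p = 0.143), Ftl1 -0.93 (adjusted p = 0.284), Sod1 -0.86 (adjusted p = 0.232) and Gpx4 -0.76. The abundant oocyte members had 0.21 ± 0.18 for Prdx1, -0.28 ± 0.22 for Prdx2, 0.06 ± 0.22 for Gstm5, 0.23 ± 0.18 for Gpx3 and 0.22 ± 0.25 for Sod2, none past the test. Nfe2l2 had 0.06, Keap1 -0.12, Nqo1 0.34, Gclc -0.29, Gclm -0.30, Prdx6 0.01, Txn1 -0.48 and Txnrd1 0.02. Hmox1, Cat and Gss were too low to test, Srxn1 was not listed in oocytes, and Gstm1 was too low or not listed. Fth1 had -1.10 (adjusted p = 0.998) at 4 weeks and -2.36 (adjusted p = 0.999) at 6 months.

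The difference between ages in the oocyte knock-out effect passed for 0 of 36 members in each of the 3 contrasts, by edgeR and DESeq2, as for 0% of all genes. Unadjusted p was under 0.05 for 1, 1 and 0 members. Fth1 had -1.11 (adjusted p = 0.609) for 7 against 4 weeks, so the effect at 7 weeks was not shown to differ from that at 4 weeks.

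In wild type oocytes, peroxiredoxin 1, Gstm5 and Gpx6 were higher at 6 months than at either earlier age. From 7 weeks to 6 months 6 members rose and 1 fell of 36, where 25.7% of all genes passed (13.1% higher and 12.6% lower), and from 4 weeks to 6 months again 6 rose and 1 fell, where 15.4% passed (8.31% and 7.1%). The members' share of 19.4% in each lies below the first background and above the second. Both contrasts use the same 6 month libraries, and age cannot be told apart from table here either. Markers moved between the same libraries. Oocyte markers summed to 19200 to 36690 CPM, 12670 to 25650 CPM and 21980 to 43920 CPM at the 3 ages, and 8 of 12 tested rose from 7 weeks to 6 months, such as Zp3 (1.82) and Gdf9 (1.16), and 4 of 12 from 4 weeks. Luteal Cyp11a1 fell (-2.77) and stromal Dcn rose (2.05) against 7 weeks, and Star rose (2.28) against 4 weeks. Their part in the members' changes was not tested.

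Gstm5 had the smallest p in both. It had 57.8, 102 and 238 CPM in 12 libraries at 4 weeks, 62.9, 73.7, 80.1, 97.2 and 46.3 CPM in 5 at 7 weeks, and 215, 317 and 577 CPM in 11 at 6 months. Every 6 month library was above every 7 week library, and 6 months overlapped with 4 weeks. The log2 fold change was 2.23 ± 0.29 against 7 weeks (adjusted p = 4.68e-07) and 1.48 ± 0.20 against 4 weeks (adjusted p = 6.22e-07). Its promoter, printed above, holds the antioxidant response core, as does that of Prdx1, while that of Gpx6 does not. The core holders Gclm, Nfe2l2, Sod1 and Txnrd1 passed in neither contrast, and a part of the core in these changes was not tested.

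Prdx1 had 939, 1319 and 2764 CPM at 4 weeks, 441, 886, 947, 943 and 1120 CPM at 7 weeks and 1496, 2082 and 3876 CPM at 6 months. The 7 week libraries were all below the 6 month libraries. The log2 fold change was 1.43 ± 0.22 against 7 weeks (adjusted p = 4.88e-06) and 0.68 ± 0.16 against 4 weeks (adjusted p = 0.00135). Knock-out oocytes had means of 1185, 1013 and 2160 CPM at the 3 ages, beside 1459, 868 and 2340 CPM in wild type.

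Gpx6 had 17.4, 56.8 and 112 CPM at 4 weeks, 10.9, 13.7, 32.8, 25.4 and 27.1 CPM at 7 weeks and 60.5, 107 and 217 CPM at 6 months. It was the 1 member that passed between 4 and 7 weeks (log2 fold change -1.36 ± 0.34, adjusted p = 0.0422), where 0.824% of all genes did (0.579% lower), and it rose to 6 months by 2.32 (adjusted p = 7.87e-06) against 7 weeks and 0.96 (adjusted p = 0.00433) against 4 weeks. The call between 4 and 7 weeks was lost without wild type library 1 (adjusted p = 0.21), 2 (0.0929) or 4 (0.0984) of 7 weeks.

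**Figure D5:**
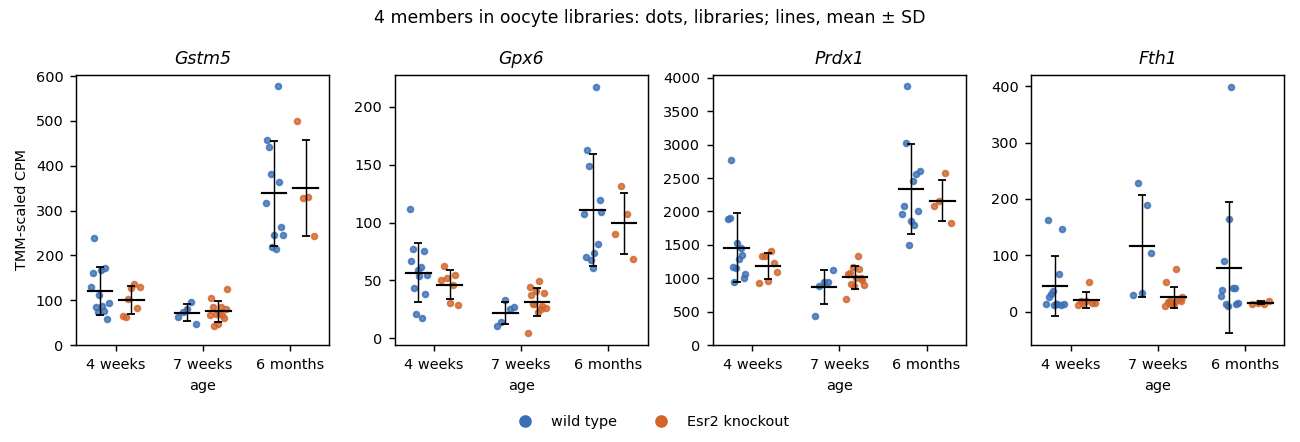
CPM of Gstm5, Gpx6, Prdx1 and Fth1 in every oocyte library, wild type and knock-out, at 3 ages (points are libraries, bars are means with SD). Gstm5 and Gpx6 are highest at 6 months in both genotypes, and the Fth1 panel shows 3 wild type libraries at 7 weeks above all knock-out libraries of that age.

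The remaining age calls in wild type oocytes were smaller. Sod2 read 21.5, 76.7, 59.3, 81.9 and 83.8 CPM at 7 weeks and 90.3, 116 and 204 CPM at 6 months (log2 fold change 0.85 ± 0.24, adjusted p = 0.0077), with no overlap. Nqo1 rose by 0.78 (adjusted p = 0.0258) and Gstp1 by 0.85 (adjusted p = 0.0301), and Keap1 fell (-0.79, adjusted p = 0.0393) against 7 weeks. Wild type library 1 at 7 weeks was the lowest for Prdx1, Sod2 and Nqo1 (441, 21.5 and 2.26 CPM). Without it 3 members passed in place of 7, and Sod2 had 0.60 (adjusted p = 0.0745). Without library 3 of 7 weeks 4 passed.

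Against 4 weeks, Txn1 rose by 1.11 (adjusted p = 0.00102), Gstp1 by 0.74 (adjusted p = 0.0172) and Gsta4 by 0.79 (adjusted p = 0.0182), and Gpx3 fell (-0.48, adjusted p = 0.0487). Named members that passed in neither contrast to 6 months had values against 4 weeks of 0.52 for Nfe2l2, 0.62 for Gpx1, 1.00 for Gpx4, 0.27 for Prdx2, 0.62 for Prdx6, 0.16 for Sod1 and -0.18 for Txnrd1. Fth1 had 0.79 (adjusted p = 0.344), Ftl1 0.52, Gclc -0.07, Gclm -0.21, Gsr 0.00, Gss 0.29, Cat 0.79 and Hmox1 0.42. Left out were the same 14 members as between cell types, with Gstm6 in place of Gpx6. Gstm6 was too low to test, and the others were not listed at every oocyte age.

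Around the members, 4 lists of related genes were followed in the same fits: thiol and glutathione partners, NADPH supply, iron and heme handling, and other regulators and targets of NRF2. In knock-out granulosa cells at 6 months the thiol partners had 6 genes higher and 3 lower of 35 tested, 25.7% against 12.6% of all genes, and their median log2 fold change was 0.27. Microsomal transferase Mgst3 had 0.79 (adjusted p = 0.00111), the copper chaperone Ccs 0.75 (adjusted p = 0.00282), Mgst1 -0.55 (adjusted p = 0.0185) and the thioredoxin-like Nxn -0.84 (adjusted p = 0.0191). The cystine importer gene Slc7a11, picked for mention after its values were seen, fell by 1.44 (adjusted p = 0.0473). NADPH supply had 3 higher and 0 lower of 20 (15%, near that background), namely Idh2 (1.08, adjusted p = 0.00287), Me1 (0.57) and G6pdx (0.82), enzymes that reduce NADP in mitochondria and cytosol.

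Iron and heme handling had 5 higher and 0 lower of 34 at that age (14.7%), again near the background. Among them were the heme synthesis enzymes Alas1 (1.00, adjusted p = 0.0178), Ppox (0.68, adjusted p = 0.00742) and Alad (0.68) and the iron sensor gene Hfe (0.77). Other NRF2 genes had 3 higher and 0 lower of 26 (11.5%, near it too), Osgin1 (1.64, adjusted p = 0.00312), Slc48a1 (0.66) and Akr1a1 (0.48). At 4 weeks Mgst3 was higher (1.13, adjusted p = 0.0156), while Osgin1 (-1.83, adjusted p = 0.0217) and Akr1b8 (-1.19, adjusted p = 0.0469) were lower, and 0 genes of the 4 lists passed at 7 weeks by edgeR, with an unadjusted p under 0.05 for 3 thiol, 7 NADPH, 10 iron and 10 other NRF2 genes. In knock-out oocytes 0 genes of the 4 lists passed at any age by edgeR. At an unadjusted p under 0.05 the lists, in that order, held 1, 0, 1 and 1 genes in the 4-week oocytes. The 7-week oocytes gave 9, 3, 8 and 2 such genes, and the oldest 2, 1, 0 and 2. The share of all genes at that unadjusted p was not computed, so these counts are not a result about the lists.

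With age, from 4 weeks to 6 months in wild type granulosa cells, the thiol partners had 4 genes higher and 1 lower of 37, NADPH supply 2 and 1 of 21, iron and heme handling 0 and 1 of 34, and other NRF2 genes 2 and 2 of 27, where 8% of all genes passed. The iron exporter gene Slc40a1 fell (-1.19, adjusted p = 3.41e-04) while Fth1 rose, and malic enzyme Me1 fell (-1.01, adjusted p = 1.97e-05). In wild type oocytes from 7 weeks to 6 months the thiol partners had 6 higher and 2 lower of 31 (25.8%, where 25.7% of all genes passed), led by Mgst3 (1.53, adjusted p = 2.62e-05), Txndc17 (1.07) and Glrx (1.42). Iron and heme handling had 5 higher and 1 lower of 24 (25%, also at the background), NADPH supply 2 and 1 of 17, and other NRF2 genes 1 and 2 of 22. The NRF2 partner Mafg (-1.47, adjusted p = 6.39e-04) and the related factor Nfe2l1 (-1.33, adjusted p = 6.17e-04) fell.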

How the data were processed

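The authors deposited 6 tables of estimated counts per gene symbol, 1 for each cell type and age, from Smart-seq2 libraries. Per the submitters' processing notes STAR, Partek, DESeq2 and the mm10 build were used, and versions and annotation are not given in the sources used here. Of the deposited expected counts 86% were whole within 0.001, and all were rounded. From them edgeR 4.0.16 (R 4.3.3) with filterByExpr, TMM scaling and the robust quasi-likelihood F test was fitted per table for genotype, and over all tables of a cell type or over all 6 tables (11794 symbols are in every table) for age and cell type. P-values were adjusted by Benjamini-Hochberg over all genes tested, with a threshold of 0.05, and the fits were tested on simulated data. DESeq2 1.42.0, limma 3.58.1 (voom), RLE scaling, no filter, a length correction, marker shares as covariates and left-out libraries were alternatives, of which most covariate fits and the 6 months against 7 weeks contrast were chosen after seeing the data. Marker sums were compared by exact permutation tests. The name of 1 column, a 7 week knock-out oocyte, joins the numbers 4 and 5 and so gives its group but no single replicate. Library 5 has a column of its own, and the joined column was left out as an alternative.

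The members and gene lists were chosen with earlier results of these data known. Named are 23 core members in each comparison where they were tested and described, the members past the test (the 12 with the smallest p where there were more) and up to 4 genes per list. Lengths came from GENCODE vM21. Replicate numbers are shared between genotypes, and same-numbered libraries deviated together in every pair only in oocytes at 7 weeks (correlations of 0.544, 0.117, 0.153 and 0.242).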

Additional observations from a re-analysis of the deposited data

Results flagged for a closer look

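Single libraries far from the rest of their group were searched for by Dixon's 95% criterion in 180 sets of values. Each set was 1 core member in 1 group of 4 to 10 libraries. Chance alone passes the criterion in about 1 set in 20, and 13 passed. The sets share libraries, so they are not independent. In oocytes of wild type mice at 7 weeks library 1 was far below the others for Nqo1 (2.261 CPM), Prdx1 (441.3 CPM) and Sod2 (21.48 CPM). In knock-out oocytes Fth1 was high in library 5 at 4 weeks (52.68 CPM), Nfe2l2 was low in library 4 at 4 weeks (2.223 CPM) and Gpx1 was low in library 4 at 6 months (17.26 CPM).

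In granulosa cells knock-out library 3 was low at 7 weeks for Cat (54.71 CPM) and Hmox1 (23.98 CPM), and another library, knock-out library 3 at 6 months, was high for Gpx1 (901.3 CPM). Among wild type granulosa libraries Gstm1 was low in library 3 (32.51 CPM), Keap1 in library 1 (34.03 CPM) and Srxn1 in library 5 (4.456 CPM) at 4 weeks, and Sod1 was high in library 5 at 7 weeks (603.2 CPM).

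The difference between knock-out and wild type granulosa cells differed between 6 months and 7 weeks for 13 members by edgeR's interaction test. The log2 differences were 2.30 for Gstm4, 2.97 for Gstm1, 2.10 for Gsto1, 2.13 for Gstm7, 2.32 for Gstm2, 3.8 for Sod3 and 1.11 for Prdx6. They were 0.88 for Txn2, 2.41 for Gstt2, 4.52 for Gsta2, 3.55 for Gstt3, 2.39 for Nqo1 and 2.16 for Gsta4. The surface epithelium markers differed between genotypes at 7 weeks, as given above. With their share as a covariate 0 members and 0 of all genes passed, and the differences ran from -0.34 for Gsta4 to 3.19 for Gsta2, with 1.90 for Gstm4 and 0.76 for Txn2.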

How the results depend on the processing

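Of 131 single-gene results past the test, 78 passed in every alternative and in every fit without 1 library, and 80 in every alternative that kept all libraries. The 131 include the comparisons of cell types and of wild type 6 months with 4 weeks, for which no fit left out a library. Among results of knock-out against wild type, only Gstm1 and Gstm7 in granulosa cells at 6 months kept the call in every fit. Over 1317 values under alternatives 1059 kept direction and call, 256 lost the call and 2 reversed. Of the 256 lost calls, 248 were outside the comparisons of cell types. The 2 were the 6 months against 7 weeks differences of Gstt2 (-0.17) and Gsta4 (-0.34) with the surface epithelium share as covariate, under which 0 of these 13 members and 0 of all genes passed. Gstm4 (2.30 to 1.90), Txn2 (0.88 to 0.76) and Prdx6 (1.11 to 0.74) moved least in that fit, and Gsta2 moved from 4.52 to 3.19. With that covariate the wild type granulosa changes came to 6 members in place of 11 (6 months against 4 weeks) and 1 in place of 2 (6 months against 7 weeks). The cause was not tested for these or the counts below.

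In knock-out granulosa cells at 4 weeks, where 3 members passed, limma voom gave 1, no filter on low counts 1, and the erythroid and the immune share 0 each. At 6 months, where 16 passed, the immune share gave 10 and the erythroid share 9 (all genes 1222 and 297, in place of 1580). In knock-out oocytes at 7 weeks, where 1 passed, DESeq2 gave 3, voom 0, no filter 2, the length correction 2, and the granulosa share 3. In wild type oocytes between 4 and 7 weeks, where 1 passed, DESeq2 gave 4, no filter 0, the length correction 2, the granulosa share 4, and a fit of only the 2 groups 0. Such a fit gave 1 in wild type granulosa cells between 7 weeks and 6 months. Where no calls over all genes stand beside a member count, here or below, its change was not shown to be particular to the members.

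Without 1 library the counts ran from 0 to 2 (knock-out granulosa, 4 weeks), 7 to 18 (6 months), 0 to 2 (knock-out oocytes, 7 weeks), 0 to 2 (wild type granulosa, 6 months against 7 weeks), 3 to 16 (the difference of knock-out effects between these ages), 0 to 2 (wild type oocytes, 7 against 4 weeks) and 3 to 9 (6 months against 7 weeks). The count was 0 without 7 week wild type granulosa library 4, and 1 without library 2 or 3. It was 0 in wild type oocytes, 7 against 4 weeks, without library 1, 2 or 4 of 7 weeks, and 2 without library 5. In knock-out oocytes at 7 weeks it was 0 without wild type library 2, 4 or 5, and 2 without library 3.

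With the replicate number as a block, granulosa cells gave 1 member at 4 weeks and 8 at 6 months (all genes 245 in place of 283 and 645 in place of 1580), and with the length correction added 1 and 5. Same-numbered libraries deviated together in every pair only in oocytes at 7 weeks. In granulosa cells the correlations had both signs at each age. They ran from -0.442 to 0.470 at 4 weeks and from -0.226 to 0.396 at 6 months. At 7 weeks they were 0.258, 0.140, 0.232, 0.433 and -0.197. So few pairs cannot decide whether the numbers mark shared animals or batches, and the labels do not say so. In the oocytes at 7 weeks the block kept 1 member, Fth1 (-1.82, adjusted p = 0.00105 by edgeR), and the same libraries without the block gave 0. The block changed no other member call there.

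Low counts, or absence from a deposited table, kept out 14 members between oocyte ages, and 7, 4 and 2 in granulosa cells at the 3 ages. Library totals ran from 1814958 to 7751953 counts in oocytes and from 702726 to 6469419 in granulosa cells. The oocyte tables called few genes of any kind by genotype, and a member that missed the threshold there was not shown to be equal.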
